A study of Mus musculus with 2 samples.

Results

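The corticosteroid receptors of the mouse and the genes around them were followed through total RNA of the left cerebral cortex. The 9 genes, taken by symbol from the 55536 annotated genes of the deposited tables, were the receptors Nr3c1 and Nr3c2, the receptor co-chaperones Fkbp4 and Fkbp5, the steroid-activating enzyme Hsd11b1, and the hormone-responsive genes Sgk1, Tsc22d3, Zbtb16 and Ddit4. Fkbp5 is itself a classical glucocorticoid target and is counted among 5 target genes below. Both libraries belonged to 1 group: aged males of the first-generation hybrid B6CASTF1/J, at 18 to 20 months, with no treatment, genotype or time contrast in the labels. Per the labels, 300 ng of RNA went into each library with ERCC spike-ins, and the samples carry biological replicate numbers 1 and 2. They share a donor identifier but have different biosample identifiers, and the labels do not say whether different animals were used, so the spread between them may be technical. The depth over annotated genes was 22827996 expected counts for replicate 1 and 29897545 for replicate 2. Each library was also quantified a second time in the deposited files, from its reads and independently of the gene table, and those values are given as the second quantification.

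Corticosterone, the main glucocorticoid of the mouse, acts in the brain through the mineralocorticoid receptor (Nr3c2), which binds it with high affinity, and the glucocorticoid receptor (Nr3c1), which is filled mainly when hormone rises with stress or at the daily peak. An unoccupied receptor sits in the cytoplasm in a complex with HSP90, in which FKBP51 (the product of Fkbp5) holds hormone affinity and nuclear transport back and FKBP52 (the product of Fkbp4) favours both. The occupied receptor enters the nucleus and binds response elements near target genes, among them Fkbp5, whose product then closes a short negative feedback loop on the receptor.

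The libraries differed from each other in ways that their labels do not name. Excitatory neuron markers were present in both, with 6 of 6 at a TPM (a transcript level normalized for length and library total) of 1 or more in each library and Camk2a at 1173 and 1050 TPM. That level does not set cortex apart, as 10 of 10 striatal and 4 of 5 hippocampal markers also reached it in both. Striatal markers were higher in replicate 2 for 10 of 10 genes, with a summed level of 222 TPM in replicate 1 and 438 TPM in replicate 2. RNAs that stay in nuclei (Malat1, Neat1, Meg3, Miat and Snhg11) were lower in replicate 2 for 5 of 5, with summed levels of 8548 and 5044 TPM. The lymphocyte markers were under 1 TPM in at least 1 library for 4 of 4 genes. Whether these differences had a part in the results below was not tested. In tissue RNA, fewer cells of a type and less RNA per cell cannot be told apart.

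All 9 genes were detected at 1 TPM or more in both libraries, and their mean levels ran from 8.74 to 55.8 TPM. In order of mean level they were Fkbp4, Tsc22d3, Nr3c1, Zbtb16, Sgk1, Fkbp5, Ddit4, Nr3c2 and Hsd11b1. Each TPM in the gene table has a deposited credibility interval, and neighbours in this order were held to differ where these intervals were apart in the same direction in both libraries. That was so for Sgk1 over Fkbp5 and for Nr3c2 over Hsd11b1, which leaves an upper block of 5 genes, a middle block of 3 and Hsd11b1 alone at the bottom. Within the upper block the order depended on the library: Tsc22d3 lay above Nr3c1 in replicate 1 and below it in replicate 2, with separate intervals both times. In the second quantification Nr3c1 came first with 101.2 TPM, followed by Fkbp4 with 88.1 TPM, and Hsd11b1 was again last with 14.8 TPM. The tables also divide TPM over different features: nuclear protein-coding genes held 46.6% and 44.4% of the gene table's TPM and 75.6% and 75.0% of the second quantification's.

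**Figure D1:**
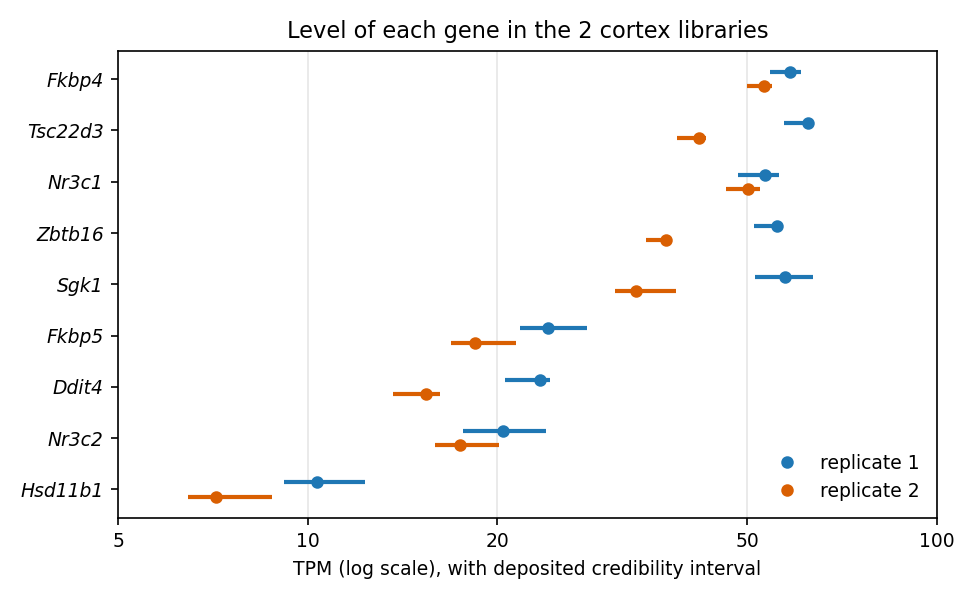
Level of each of the 9 genes in TPM on a log axis, with 1 point per library (blue, replicate 1; orange, replicate 2) and the deposited credibility interval as a bar. Points can lie at or just past the end of a bar because the interval belongs to the posterior mean. For 6 genes the replicate 2 bar lies wholly below the replicate 1 bar, and for Nr3c1, Nr3c2 and Fkbp4 the bars overlap. The share of all genes with separate bars was not computed. Deposited TPM itself was lower in replicate 2, with a median log2 ratio of -0.09 over all genes tested.

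The glucocorticoid receptor gene was the more abundant of the receptor pair. Nr3c1 (ENSMUSG00000024431.15, chromosome 18, 39410545 to 39519421, minus strand, GRCm38) had 3202 expected counts and 53.4 TPM in replicate 1 and 4398 counts and 50.03 TPM in replicate 2, which placed its mean of 51.7 ± 2.35 TPM (SD, n = 2) above 83.5% of the 12868 nuclear protein-coding genes detected in both libraries. Nr3c2 (ENSMUSG00000031618.13, chromosome 8, 76899442 to 77245012, plus strand) had 1116 counts and 20.5 TPM in replicate 1 and 1490 counts and 17.5 TPM in replicate 2. Its mean of 18.95 ± 2.12 TPM (SD, n = 2) lay above 55.1% of the detected genes, close to their middle. Within each library Nr3c1 exceeded Nr3c2 with separate intervals, by 1.45 ± 0.096 on the log2 scale (SD, n = 2), or 2.73-fold. The second quantification put the same ratio at 1.78 on the log2 scale, or 3.43-fold.

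Between the libraries, both receptor genes were nearly level. After TMM scaling, which matches the bulk of genes between libraries, the log2 ratio of counts in replicate 2 over replicate 1 was 0.11 for Nr3c1, with a 95% exact (Clopper-Pearson) counting interval of 0.05 to 0.18, and 0.07 for Nr3c2, with an interval of -0.04 to 0.19. The intervals cover counting error only. Nr3c1 was the 1 gene of the 9 whose interval lay above 0, while 28.1% of the 12347 genes tested, those whose counts averaged at least 100, did so. Scaled by the spike-in totals instead, the Nr3c1 ratio was -0.01, and from deposited TPM it was -0.09, so no direction was held. The exons of Nr3c2 overlap those of an antisense gene, Gm10649, over 247 bases, but that gene held 24 and 28 counts.

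The progesterone and oestrogen receptors were lower in level than either corticosteroid receptor. The progesterone receptor Pgr had 10.4 and 9.17 TPM, and its counting interval between the libraries included 0, with a log2 ratio of -0.07. The oestrogen receptors Esr1 and Esr2 had mean levels of 0.97 and 0.18 TPM; both were named after their values were seen.

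Several annotated transcripts shared the receptor signal. Nr3c1-203 and Nr3c1-204, which encode a product of the same 792 codons, held 30.2% ± 3.71 and 27.0% ± 6.55 of the gene's TPM (SD, n = 2). The second quantification gave them 9.65% and 31.3%, and moved 24.2% onto the short Nr3c1-205. Among the 9 annotated Nr3c1 transcripts the leading one therefore differed between libraries and between quantifications. For Nr3c2, Nr3c2-204, with 980 codons, led in both libraries of both quantifications, at 33.0% ± 11.7 and 28.1% ± 3.11 (SD, n = 2).

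The co-chaperone pair differed in level and between the libraries. Fkbp4 (ENSMUSG00000030357.10, chromosome 6, 128429735 to 128438677, minus strand) had 1848 counts and 58.4 TPM in replicate 1 and 2336 counts and 53.1 TPM in replicate 2. Fkbp5 (ENSMUSG00000024222.17, chromosome 17, 28399094 to 28517527, minus strand) had 1024 counts and 24.1 TPM in replicate 1 and 1098 counts and 18.4 TPM in replicate 2. The favouring partner thus exceeded the restraining one in each library with separate intervals, by 1.40 ± 0.18 on the log2 scale (SD, n = 2), or 2.65-fold, and by 2.27-fold in the second quantification. Fkbp4 was level between the libraries, with a log2 ratio of -0.0056 and a counting interval of -0.09 to 0.08. Fkbp5, the hormone-responsive one, was lower in replicate 2 by 1.18-fold, with a log2 ratio of -0.24 and an interval of -0.37 to -0.12. Across all genes tested, 15.6% had an interval wholly below 0.

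Fkbp4 came almost wholly from 1 transcript, Fkbp4-201, at 98.2% ± 0.69 of its TPM (SD, n = 2), and Fkbp5-201 held 76.6% ± 0.40 of Fkbp5. The second quantification gave these transcripts 89.5% ± 10.7 and 51.7% ± 2.69. They encode products of near-equal length, 458 and 456 codons. Entries annotated inside Fkbp5 introns also differed: AC154912.3 and AC154912.5 on the Fkbp5 strand had 38 and 37 counts in replicate 1 and 7 and 6 in replicate 2. They share no exonic base with Fkbp5.

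All 13 listed receptor chaperones were detected, led by the HSP70 family member Hspa8 at 1132 and 1068 TPM. Their median log2 ratio was 0.08, against 0.05 over all genes tested. Of the 13, 7 had an interval above 0 and 1 below it, beside 28.1% and 15.6% of all genes tested, and none reached the fold threshold, set at 0.322 either way on the log2 scale. The 1 that was lower, named after its value was seen, was the HSP40 co-chaperone Dnajb1, with 36.8 and 28.7 TPM and a log2 ratio of -0.22 (interval -0.32 to -0.13), close to that of Fkbp5.

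Receptor coregulators, which link the bound receptor to chromatin enzymes, were all detected, 12 of 12, and were led by the corepressor Ncor1 at 129 and 117 TPM. They had a median log2 ratio of -0.04, with 4 lower and 1 higher, beside 15.6% and 28.1% of all genes tested, and 0 past the fold threshold.

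Of the enzymes that set hormone exposure inside cells, the activating one was measured and the inactivating one was not detected. Hsd11b1, which regenerates active corticosterone from its inert keto form (ENSMUSG00000016194.14, chromosome 1, 193221634 to 193264075, minus strand), had 206 counts and 10.3 TPM in replicate 1 and 189 counts and 7.15 TPM in replicate 2. With a mean of 8.74 ± 2.25 TPM (SD, n = 2) it was the least abundant of the 9 genes and lay above 31.6% of the detected genes. Hsd11b2, whose product inactivates corticosterone in aldosterone target tissue, had 0 counts in both libraries, where the deposited upper bounds were 0.112 and 0.0804 TPM. Hsd11b1 exceeded H6pd, whose product supplies it with reduced cofactor, by 0.64 ± 0.095 on the log2 scale (SD, n = 2), or 1.56-fold, with H6pd at 6.32 and 4.80 TPM. That ratio was 1.36-fold in the second quantification.

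Hsd11b1 was lower in replicate 2 by 1.38-fold, with a log2 ratio of -0.47. Its counting interval, -0.76 to -0.18, was the widest of the 9, as its counts were the lowest. The 2 quantifications disagreed on its transcripts: Hsd11b1-205 held 58.9% ± 11.0 in the gene-table quantification (SD, n = 2) and close to 0 in the second, which divided the signal among Hsd11b1-201, Hsd11b1-202 and Hsd11b1-203. No transcript-level statement is therefore made for this gene. Beyond Hsd11b1, 5 of 12 steroid-handling genes were detected, led by the drug and steroid exporter Abcb1a at 7.72 and 6.59 TPM. Of the 4 with enough counts to be tested, the 1 that passed the fold threshold was Cyp7b1, a hydroxylase of oxysterols and neurosteroids. It had 143 and 250 counts and a log2 ratio of 0.46 (interval 0.16 to 0.77), in the opposite direction to Hsd11b1. Of all genes tested, 5.05% passed the threshold in the higher direction and 5.96% in the lower.

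Most of the hormone-responsive genes were lower in replicate 2. Of the 9 genes, 6 had a counting interval wholly below 0, beside 15.6% of all genes tested: the 5 target genes and Hsd11b1. Sgk1, Tsc22d3, Zbtb16 and Ddit4 were each lower in replicate 2 by 1.33-fold to 1.44-fold, with deposited TPM intervals that did not overlap. With Hsd11b1 they made 5 of the 9 genes past the fold threshold in that direction, where 5.96% of all genes tested lay, and 0 of 9 in the other, where 5.05% lay. The median log2 ratio of the 9 was -0.41, beside 0.05 over all genes tested, whose 5th and 95th percentiles were -0.36 and 0.32. As there is 1 library on each side, this describes these libraries and is no test of a condition. The share of all genes with separate deposited TPM intervals was not computed.

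**Figure D2:**
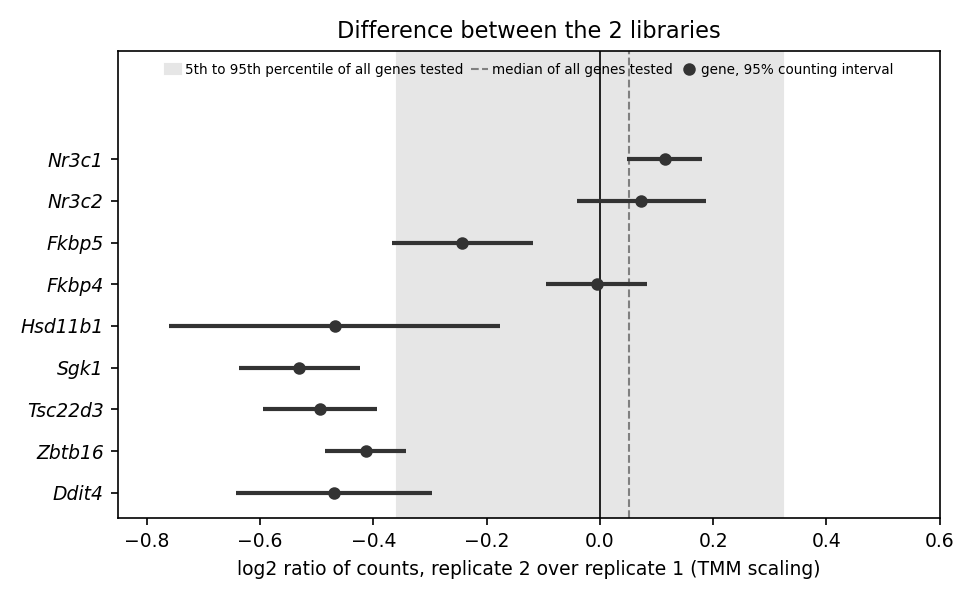
Log2 ratio of TMM-scaled counts, replicate 2 over replicate 1, for each of the 9 genes (points) with its 95% counting interval (bars). The grey band runs from the 5th to the 95th percentile of the 12347 genes tested and the dashed line is their median; Hsd11b1, Sgk1, Tsc22d3, Zbtb16 and Ddit4 lie left of the band, and the receptors and Fkbp4 lie near the dashed line.

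Sgk1 encodes a serine/threonine kinase that is induced by glucocorticoids and mineralocorticoids and acts on ion channels and transporters (ENSMUSG00000019970.15, chromosome 10, 21882184 to 21999903, plus strand). It had 1539 counts and 57.4 TPM in replicate 1 and 1352 counts and 33.2 TPM in replicate 2. The log2 ratio was -0.53, with an interval of -0.64 to -0.42. That was the lowest estimate among the 9, but its interval overlapped those of Tsc22d3, Ddit4, Hsd11b1 and Zbtb16. Its relative Sgk3 was lower in level, at 6.0 and 5.12 TPM, and Sgk1 exceeded it by 2.98 ± 0.40 on the log2 scale (SD, n = 2), or 7.88-fold. Sgk2, named after its value was seen, had a mean of 0.17 TPM.

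Transcripts of Sgk1 start at widely spaced sites, and the bases before 3 of these starts are printed because the difference between the libraries was not shared by them. The runs are the 250 bases before each start on GRCm38, plus strand, from the RefSeq promoter table (GRCm38.p6), 5′ to 3′. Capitals mark matches to a glucocorticoid response element written as GNACA and TGTNC with 3 free bases between them, to the hexamer AGAACA or its reverse complement TGTTCT, which overlaps each arm of that element, or to CACGTG, an E-box read by clock and MYC family factors; both strands were searched.
Sgk1-204, chr10:21881934-21882183: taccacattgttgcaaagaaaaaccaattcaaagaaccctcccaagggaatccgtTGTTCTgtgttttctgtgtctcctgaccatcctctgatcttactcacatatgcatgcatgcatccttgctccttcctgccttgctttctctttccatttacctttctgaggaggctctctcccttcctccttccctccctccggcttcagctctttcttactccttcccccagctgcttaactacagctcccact
Sgk1-202, chr10:21993640-21993889: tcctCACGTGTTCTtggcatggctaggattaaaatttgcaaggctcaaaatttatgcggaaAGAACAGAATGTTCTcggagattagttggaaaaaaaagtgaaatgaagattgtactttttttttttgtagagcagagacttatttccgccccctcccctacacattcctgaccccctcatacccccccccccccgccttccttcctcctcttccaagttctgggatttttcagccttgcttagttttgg
Sgk1-201, chr10:21994416-21994665: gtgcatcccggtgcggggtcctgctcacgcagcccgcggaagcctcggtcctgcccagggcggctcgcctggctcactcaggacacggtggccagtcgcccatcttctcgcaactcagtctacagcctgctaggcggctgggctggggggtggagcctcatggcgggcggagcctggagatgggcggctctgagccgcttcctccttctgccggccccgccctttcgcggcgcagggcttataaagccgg

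The stretch before Sgk1-202 held a full response element, GAACAGAATGTTC, that began 188 bases before the start. Its 3 hexamers were 1 over each arm of that element and 1 that overlapped its 1 E-box. The stretch before Sgk1-204 held 1 hexamer, 195 bases before its start, and the stretch before Sgk1-201 held no match. The RefSeq table had 14 promoter windows, each with 250 bases before the start and 50 after it, for 7 of the 9 genes. A full element stood in 1 of these 14, and in 0.475% of all 32851 windows of the same length. The hexamer stood in 4 of the 14, from 2 genes, and in 19.0% of all windows, and the E-box stood in 2 of the 14 (Fkbp5 and Sgk1) and in 7.15% of all windows. A match says only that these letters are present.

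Grouped by start, the Sgk1 transcripts behaved differently; the groups were chosen after transcript values were seen, and carry no test. The distal group, 2 transcripts that start at 21882184 and 21882369 and include Sgk1-204, had 10.1 TPM in replicate 1 and 9.87 TPM in replicate 2. The proximal group, 6 transcripts that start in the last 7000 bases of the gene, from 21993890 to 21996591, at least 111706 bases downstream of the first distal start, and include Sgk1-202 and Sgk1-201, had 46.3 TPM in replicate 1 and 21.9 TPM in replicate 2. The proximal group therefore carried most of the gene's TPM in both libraries, 80.6% and 66.0%, and the fall in TPM lay there. Its log2 ratio of counts was -0.92 (interval -1.06 to -0.79), and that of the distal group was 0.14 (interval -0.04 to 0.32). Within each library, proximal over distal TPM was 4.57 in replicate 1 and 2.22 in replicate 2, a comparison that no library scaling enters.

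The second quantification showed the same split. Its proximal group had a log2 ratio of -0.88 (interval -1.03 to -0.73) and its distal group 0.23 (interval 0.07 to 0.39). The difference of the log2 ratios, proximal less distal, was -1.07 by the gene-table quantification, with a 95% exact conditional interval of -1.30 to -0.84. By the second it was -1.11, with an interval of -1.33 to -0.89. These intervals, like those of the groups, take reads divided among transcripts by estimation as observed counts. They leave out the error of that division and are no test. Restricting the proximal group to its 3 protein-coding transcripts left its ratio at -0.92 and -0.85. Which proximal transcript carries the signal was not settled: the gene-table quantification gave Sgk1-201 39.9% ± 8.95 of the gene's TPM and Sgk1-202 4.26% ± 3.34 (SD, n = 2), and the second gave them 1.81% ± 2.56 and 30.3% ± 7.85. Nor was the direction of each transcript settled. Sgk1-202, whose upstream stretch held the full element, was higher in replicate 2 by the gene-table quantification (1.14, interval 0.62 to 1.71). By the second it was lower (-1.15, interval -1.32 to -0.98). Sgk1-201 was at -1.12 by the former and 6.68 by the latter, which gave it 0.0079 and 62.1 counts. The coding sequences differ in length, at 524 codons in Sgk1-204, 445 in Sgk1-202 and 431 in Sgk1-201. The middle group of 5 transcripts held 1.74% and 4.27% of the gene's TPM and differed in ratio between the quantifications, at -0.55 and -4.00, on 37.2 and 151 counts in replicate 1.

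**Figure D3:**
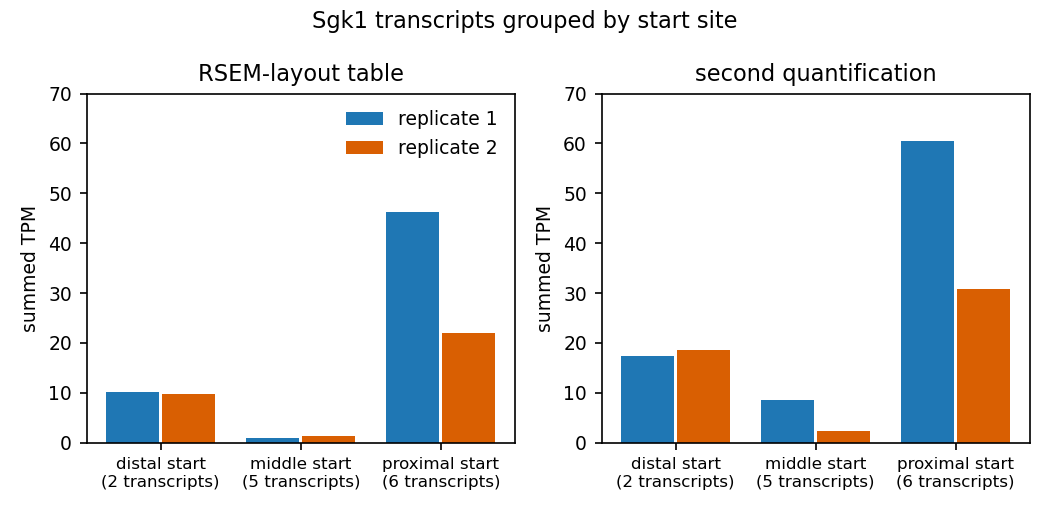
Summed TPM of Sgk1 transcripts grouped by start site, for replicate 1 (blue) and replicate 2 (orange), in the gene-table quantification (left, RSEM-layout table) and the second quantification (right); no error is drawn, as each bar is 1 library. In both panels the distal bars are nearly level between the libraries and the proximal bar of replicate 2 is lower, at 21.9 against 46.3 TPM on the left and 30.8 against 60.4 TPM on the right.

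Tsc22d3, which encodes the anti-inflammatory leucine zipper protein GILZ (ENSMUSG00000031431.13, chromosome X, 140539528 to 140600659, minus strand), had 1683 counts and 62.4 TPM in replicate 1 and 1516 counts and 41.9 TPM in replicate 2. Its log2 ratio was -0.49 (interval -0.60 to -0.39), or 1.41-fold lower in replicate 2. Tsc22d3-201, with 137 codons, led in both libraries, at 63.3% ± 11.9 and, in the second quantification, 84.9% ± 6.09 (SD, n = 2). In the gene-table quantification 22.3% and 36.4% of the TPM went to the noncoding Tsc22d3-202, which the second left close to 0. Limited to protein-coding transcripts, the ratio was -0.77 by the former and -0.45 by the latter, so the size of the fall depends on how reads are divided but its direction did not. Its paralogue Tsc22d1 was higher in level, at 274 and 253 TPM, with Tsc22d3 at -2.36 ± 0.32 relative to it on the log2 scale (SD, n = 2). Of the 3 other family members listed, 1 was lower between the libraries (Tsc22d2, at -0.16, named after its value was seen) and none passed the fold threshold. Over all genes tested, 15.6% were lower and 5.96% were past that threshold in the lower direction.

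Zbtb16 encodes PLZF, a zinc finger transcription factor (ENSMUSG00000066687.5, chromosome 9, 48654297 to 48836222, minus strand). It had 3192 counts and 55.7 TPM in replicate 1 and 3041 counts and 37.2 TPM in replicate 2, a log2 ratio of -0.41 (interval -0.49 to -0.34). Both of its transcripts encode 673 codons and both were lower: Zbtb16-201 had a ratio of -0.35 and Zbtb16-202 one of -0.58, with -0.33 and -0.56 in the second quantification.

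Ddit4 encodes REDD1, a stress-induced inhibitor of the growth kinase complex mTORC1 (ENSMUSG00000020108.4, chromosome 10, 59949669 to 59951834, minus strand). With 576 counts and 23.4 TPM in replicate 1 and 528 counts and 15.4 TPM in replicate 2, its log2 ratio was -0.47 (interval -0.64 to -0.30). It has 1 annotated transcript, so its value does not rest on any division of reads among its own transcripts. Its relative Ddit4l had 7.96 TPM in both libraries, and Ddit4 exceeded it by 1.56 in replicate 1 and 0.95 in replicate 2 on the log2 scale, or 2.38-fold on average. None of 7 listed genes of the mTORC1 pathway was lower between the libraries and 1 was higher (Rheb, at 0.13, named after its value was seen). Over all genes tested, 15.6% were lower and 28.1% higher. The most abundant, Tsc2, had 70.7 and 58.4 TPM and a ratio of -0.01.

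Of other genes that glucocorticoids are known to induce, more were lower in replicate 2 than higher. The list was chosen with earlier results of these data known, so its counts are a description and no independent support. Of 22 listed, 20 were detected and 19 averaged at least 100 counts. Of those 19, 9 were lower in replicate 2 and 1 was higher, beside 15.6% and 28.1% of all genes tested. Past the fold threshold, 5 were lower and 0 higher, beside 5.96% and 5.05%. Their median log2 ratio was -0.09, well short of the -0.41 of the 9 genes, and the values spread from -1.68 to 0.28. Hif3a, an inhibitory relative of the hypoxia-inducible factors, had the lowest ratio, with 308 and 122 counts (-1.68, interval -1.99 to -1.37). The lipid droplet gene Plin4 followed with 257 and 171 counts (-0.93, interval -1.22 to -0.65). The NF-kappaB inhibitor Nfkbia had 426 and 343 counts (-0.66, interval -0.87 to -0.45). Arrdc2, an arrestin-domain gene, had 210 and 174 counts (-0.61, interval -0.91 to -0.32). Klf15 was the fifth, at -0.43, and was named after its value was seen.

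Of the other 14 genes tested in that list, 4 were lower by less than the fold threshold, and all 4 were named after their values were seen. The clock gene Per1 was at -0.318 with 76.5 and 57.2 TPM, the repressor gene Bcl6 at -0.19, the receptor kinase gene Mertk at -0.17 and Klf9 at -0.08 with 84.2 and 71.7 TPM. The most abundant gene of the list, the metallothionein Mt1, had 159 and 143 TPM and a ratio of -0.02 (interval -0.13 to 0.10). The phosphatase gene Dusp1, also named after its value was seen, was the 1 that was higher, at 0.28 (interval 0.13 to 0.42). Dusp1 is also an activity-induced gene. Of the 7 immediate early markers 2 were higher and 2 lower, beside 28.1% and 15.6% of all genes tested, with a median of -0.006.

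No tested gene downstream of aldosterone or Sgk1 passed the fold threshold. Of all genes tested, 5.96% passed it in the lower direction and 5.05% in the higher. At those shares a list this short may hold none. Of 9 listed genes of aldosterone-responsive sodium transport, 6 were detected. Among the 5 tested, 2 were lower and 2 higher, beside 15.6% and 28.1% of all genes tested, with 0 past the fold threshold. The sodium pump subunit Atp1b1 was the most abundant at 724 and 680 TPM. The epithelial sodium channel subunit Scnn1b, named after its value was seen, was listed at 0 counts in both libraries. Of the Sgk1 relatives and substrates, 4 of 5 were tested: Sgk3 was lower at -0.29, Nedd4, a ubiquitin ligase and the most abundant of them at 124 and 128 TPM, was higher at 0.16, and the median was -0.01.

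**Figure D4:**
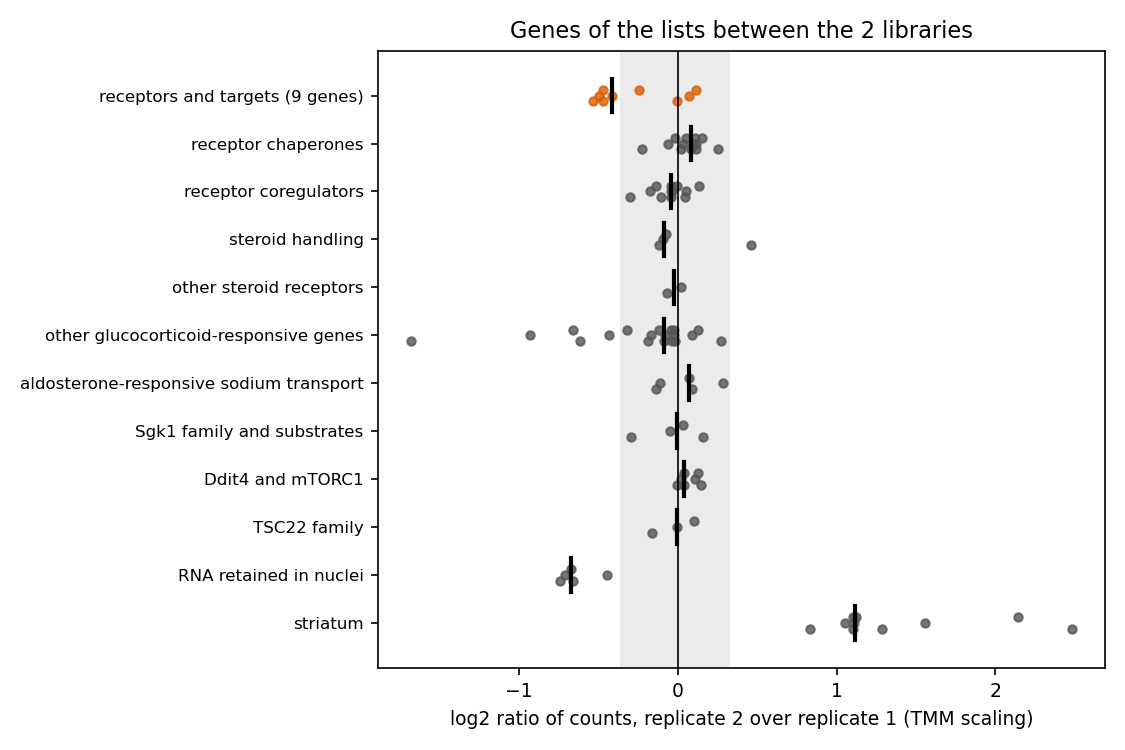
Log2 ratio of TMM-scaled counts, replicate 2 over replicate 1, for each gene averaging at least 100 counts in the listed groups (points; vertical position within a group has no meaning) with the group median as a black bar; the grey band is the 5th to 95th percentile of all genes tested. The 9 genes (orange) have a median of -0.41, nuclear RNAs -0.67, striatal markers 1.11, and the other groups medians from -0.09 to 0.08.

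The values that moved beside the target genes are given here for each of them. RNAs retained in nuclei were lower in replicate 2, with a median log2 ratio of -0.67 and a range of -0.74 to -0.45. Retained-intron transcripts of the 9 genes, 7 in all, fell in the same direction, from 183 to 118 counts, a log2 ratio of -0.97 (interval -1.32 to -0.63). These came from Fkbp5, Fkbp4, Hsd11b1, Sgk1 and Tsc22d3 only, with 93.2 and 62.0 counts from Sgk1 and 34.0 and 16.5 from Tsc22d3. Protein-coding transcripts of the 9 genes, 45 in all, had a ratio of -0.20 (interval -0.24 to -0.17). Processed transcripts, 12 in all, went the other way, from 412 to 600 counts, a ratio of 0.20 (interval 0.02 to 0.38). Tsc22d3 held 353 and 539 of those counts. In the second quantification the processed transcripts had 69.5 and 62.2 counts and a ratio of -0.46 (interval -0.98 to 0.06). The pooled ratios of the classes rest on different genes. The ratio for retained-intron transcripts of all genes was not computed. With those protein-coding transcripts alone, 6 genes remained lower and 1 higher, and the median was still -0.41; this leaves out processed and other noncoding classes as well as retained introns, and moved Sgk1 to -0.51 and Tsc22d3 to -0.77. Over all genes tested, 15.6% were lower and 28.1% higher in replicate 2, beside which the marker counts stand. Endothelial markers, of a cell type that responds to glucocorticoids, had 2 lower and 2 higher of 5 and a median of -0.15. Astrocyte markers had 1 lower and 2 higher of 6 and a median of 0.08. Excitatory neuron markers had 3 lower and 1 higher of 6. Higher in replicate 2 were 5 of 6 markers of oligodendrocytes (median 0.20), 3 of 5 of microglia (median 0.20) and 4 of 6 of inhibitory neurons (median 0.15), with 0 lower in each. Of 5 choroid plexus markers, 2 were detected in both libraries and tested, with 1 higher and 0 lower. Ttr, at 9.59 and 17.1 TPM, was the higher one, by 0.97, and Kl was at -0.04 (interval -0.42 to 0.34). The part of nuclear RNA content, striatal tissue or other cell types in the target gene differences was not tested.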

How the data were processed

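Members and gene lists were chosen with earlier results of these data known. Per the deposited file lists, tables were made on mm10 with GENCODE M21, with the aligner, tool versions and use of strand not given in the sources used here. Per the file headers, the deposited gene and first transcript tables have the RSEM layout, with expected counts, TPM, signal-type bounds of a TPM credibility interval (level not stated) and the percent of gene TPM held by each transcript. The second deposited transcript table, in the kallisto layout and made from reads, has estimated counts and TPM, which were summed per gene. Reads of near-identical or overlapping genes are divided by estimation, and CAST variants may lower counts by an unmeasured amount.

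Of 81881 gene-table rows, 55536 matched the annotation. Expected counts were rounded, 0.5 was added, and libraries were scaled by TMM (edgeR 4.0.16, R 4.3.3). The log2 ratio of replicate 2 over replicate 1 has a 95% Clopper-Pearson interval from both counts (scipy 1.17.1). Shares of all genes tested, and counts of genes called within lists, cover genes averaging at least 100 counts. Transcripts and transcript groups were given intervals without that minimum. A gene was called lower or higher where the interval excluded 0, and separately where the ratio reached 1.25-fold. With 1 library on each side no test of a condition is possible, so no p-value is given. Counts of 19856 genes differed between replicates with a chi-square per degree of freedom of 12.2, above sampling noise. The interval script was tested on simulated counts. Named were all 9 members, all genes of 7 pairs and, of each list, the most abundant gene and up to 4 past 1.25-fold; exceptions are marked where named, and marker genes are named as checks of the tissue and RNA. Alternatives were other scalings (DESeq2 1.42.0 size factors, library totals, spike-ins, deposited TPM), the second quantification, another added count, other filters, and leaving out each library. The planned protein comparison was not run.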

Additional observations from a re-analysis of the deposited data

How the results depend on the processing

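With 2 libraries of 1 group, counting intervals leave out variation between animals, and depth limits Hsd11b1 most, whose counts were the lowest of the 9 genes. The count of 6 genes lower in replicate 2 was the same in every alternative run (among them protein-coding transcripts only, chosen after seeing the data), except under spike-in totals, where Fkbp4, at -0.13, made it 7. The count of genes higher, 1 in the main analysis, was 0 under spike-in totals and 0 from deposited TPM. The median log2 ratio of the 9 genes was -0.54 under spike-in totals and -0.53 from deposited TPM; these scalings shifted the median of all genes by -0.13 and -0.15, and the members' median less the median of all genes was -0.46 in the main analysis, -0.46 under spike-ins and -0.44 from TPM. Nr3c1 turned to -0.011 under spike-in totals and to -0.093 from deposited TPM. The share of genes past the fold threshold in the lower direction was 17.1% at a mean count of 10 or more. It was 29.8% with no filter. Scaling alone puts a gene with equal counts in both libraries past the threshold in that direction. Ms4a1, with 2 counts in each library, had a log2 ratio of -0.34. How much of these shares comes from such genes was not tested. Levels in TPM were higher in the second quantification for all 9 genes. No paired analysis was possible because there is 1 group.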
